A study of Mus musculus with 9 samples.

Results

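The transcripts described here come from 9 genes that act in and next to the citric acid cycle: Cs, Idh3a, Idh2, Ogdh, Suclg1, Sucla2, Fh1, Mdh2 and Pdha1. They were taken by name, as the rows of the deposited count files whose Entrez Gene ID maps to these mouse symbols. All 9 were found among the 18830 genes of the files, and all 9 passed the filter on low counts that left 14741 genes for testing. Pdha1 is not a cycle enzyme in the strict sense: it encodes the catalytic alpha subunit of pyruvate dehydrogenase, which feeds the cycle.

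The citric acid cycle runs in the mitochondrial matrix, where it oxidises the acetyl group of acetyl-CoA and passes the electrons to the respiratory chain as NADH and reduced flavin. Pyruvate dehydrogenase makes acetyl-CoA from pyruvate, and its activity is set by kinases that switch it off and phosphatases that switch it on. In the vessel wall the cycle serves contractile smooth muscle cells, while brown adipocytes, which lie in the fat around the aorta, are packed with mitochondria and carry large amounts of its enzymes.

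RNA from aortas of mice was sequenced as mRNA libraries in 3 groups of 3, and every group carried the genotype ApoE knock out, which makes mice prone to atherosclerosis. Sham control mice were set against mice infused from osmotic pumps with angiotensin II (Ang II) at 1000 ng/kg/min, for 14 days or for 28 days. Ang II is a peptide hormone that raises blood pressure and is used in such mice to produce abdominal aortic aneurysms. The series text places the dissected piece above the kidneys and names saline as the vehicle of the controls. It does not give the day on which the sham aortas were taken, and mouse ages and sexes were not given in the sources used here. Sample titles begin with the word Muscle although the tissue is given as aorta. Nothing in the labels says that the 3 libraries of a group came from separate animals, so the p-values measure the spread between these libraries, which may be partly technical.

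Library totals lay between 9609690 and 14923936 expected counts, the estimated counts per gene that RSEM gives. Values are normalised counts (CPM), that is, counts scaled to a library of 1000000 with edgeR's TMM factors. Apoe itself was read in all 9 libraries, from 22.5 to 648 CPM, and a total per gene cannot show whether the reads lie outside the deleted part. Smooth muscle genes were read in all 9 libraries, with Acta2 at 957 to 13376 CPM and Myh11 at 304 to 5692 CPM. The brown fat gene Ucp1 was also read in all of them, at 651 to 6133 CPM. In Ang II 28-day replicates 1 and 3 Ucp1, at 2981 and 2988 CPM, stood above Acta2, at 2814 and 957 CPM. Some libraries stood apart in what other tissue they held. Skeletal muscle genes such as Myh1 were at 2819 and 653 CPM in Ang II 28-day replicates 1 and 2, at 16.1 CPM in replicate 3 and at no more than 2.80 CPM elsewhere. Myh4, another skeletal myosin, was at 0 in all 6 sham and 14-day libraries. Genes of sympathetic neurons such as Dbh and Th were highest in sham replicate 2, at 1755 and 1171 CPM, and were both at 0 in sham replicate 3.

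Promoter windows of the genes are shown first, as a description, and their part in the levels of the 9 transcripts was not tested. RefSeq promoter sequence (GRCm38.p6) was held for 8 of the 9 genes, in 13 windows of which 6 overlapping or neighbouring ones belong to Ogdh; Idh3a is named only. Each window is the 250 bases before a transcript start, 5′ to 3′ on the gene's strand. 5 short motifs were searched on both strands: the nuclear receptor half-site AGGTCA, the cyclic AMP response element TGACGTCA, the CCAAT box CCAAT, the core of the NRF1 site GCGCATGC and the ETS core CGGAAG. Capitals mark every match. Ogdh and Mdh2 are printed because they hold the full cyclic AMP response element. Sucla2 is printed because it holds a half-site, and Suclg1 because it holds none of the 5 motifs.
Ogdh chr11:6291347-6291596, plus strand: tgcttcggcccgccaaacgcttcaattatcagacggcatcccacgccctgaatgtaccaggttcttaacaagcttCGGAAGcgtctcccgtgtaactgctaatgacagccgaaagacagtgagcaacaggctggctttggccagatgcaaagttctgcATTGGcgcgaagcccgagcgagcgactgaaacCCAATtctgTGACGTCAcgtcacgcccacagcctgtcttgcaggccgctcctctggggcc
Mdh2 chr5:135778399-135778648, plus strand: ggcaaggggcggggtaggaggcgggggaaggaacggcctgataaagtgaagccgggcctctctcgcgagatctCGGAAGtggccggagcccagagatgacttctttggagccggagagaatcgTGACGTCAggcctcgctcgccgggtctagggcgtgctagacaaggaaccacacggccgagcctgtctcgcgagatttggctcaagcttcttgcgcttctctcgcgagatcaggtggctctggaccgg
Sucla2 chr14:73552536-73552785, plus strand: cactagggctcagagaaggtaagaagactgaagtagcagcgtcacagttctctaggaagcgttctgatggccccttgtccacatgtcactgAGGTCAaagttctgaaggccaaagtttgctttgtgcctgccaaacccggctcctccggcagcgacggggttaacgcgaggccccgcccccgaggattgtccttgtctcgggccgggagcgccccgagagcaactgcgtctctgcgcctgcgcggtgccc
Suclg1 chr6:73248255-73248504, plus strand: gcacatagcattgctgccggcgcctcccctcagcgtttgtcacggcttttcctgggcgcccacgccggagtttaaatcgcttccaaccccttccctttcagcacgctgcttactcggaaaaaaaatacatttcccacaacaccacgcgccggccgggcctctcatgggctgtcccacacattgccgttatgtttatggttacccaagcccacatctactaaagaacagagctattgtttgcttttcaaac

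In the Ogdh window the cyclic AMP response element begins 51 bases before the start, and in the Mdh2 window 127 bases before it. Of 32851 windows of all genes, 1.55% held that element. CCAAT was found in windows of 4 of the 8 genes (Cs, Idh2, Ogdh and Fh1) and in 33.8% of all windows. The ETS core was found in 4 (Mdh2, Ogdh, Idh2 and Fh1) and in 13.6% of all windows, the half-site in 2 (Sucla2 and Fh1) and in 14.0%, and the NRF1 core in downstream starts of Ogdh alone and in 2.26%. Pdha1, like Suclg1, held none of them. The counts are of genes with a match in any of their windows, while the percentages are of single windows. A gene with several windows, such as Ogdh, has more room for a match, so the 2 measures are not alike. No motif was shared by all 8 genes, and a match is only a run of letters.

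After 14 days of Ang II every library had less of all 9 transcripts than every sham library. The fitted log2 fold changes ran from -0.80 for Idh2 to -1.65 for Suclg1 and Sucla2, with a median of -1.37 against -0.07 over all genes tested. None passed the threshold of an adjusted p of 0.05 in edgeR's quasi-likelihood test, in which adjusted p ran from 0.117 to 0.167 over the 9 genes and no gene of the whole table was called. After 28 days the group means lay between those of the other groups, and all 9 overlapped sham.

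**Figure D1:**
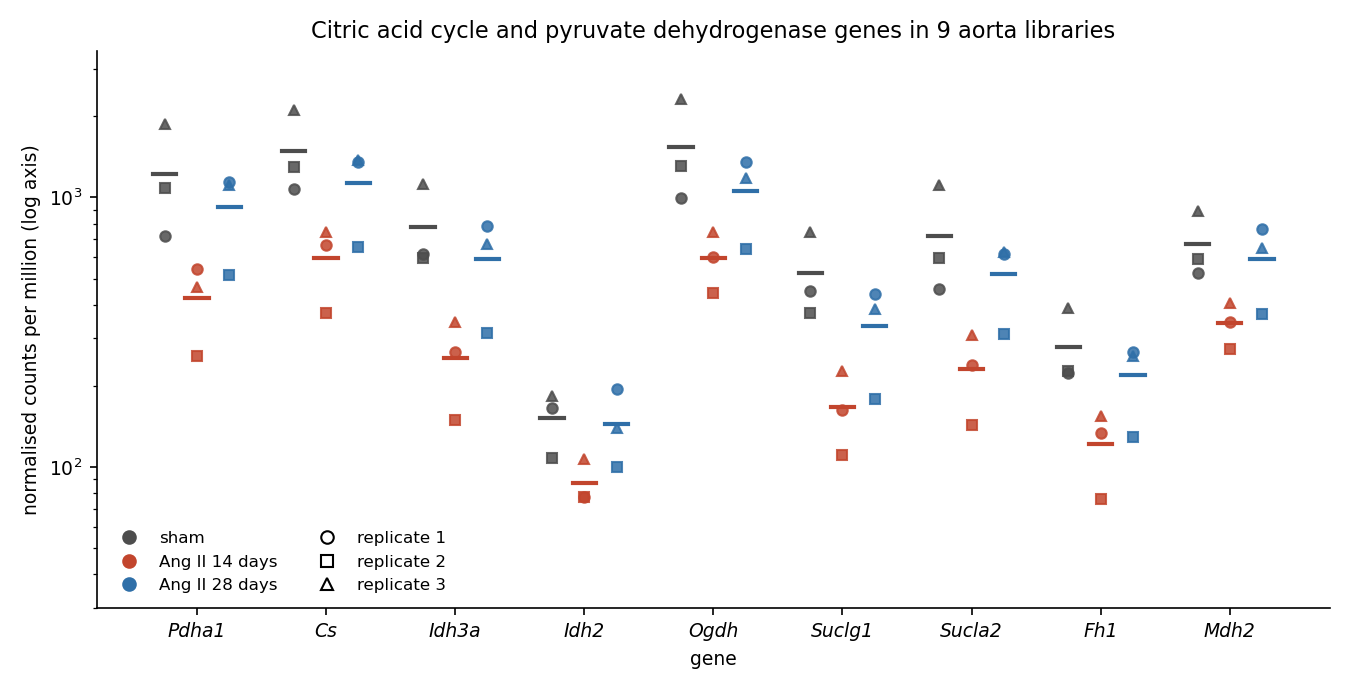
Normalised CPM (log axis) of the 9 genes in 9 libraries; each point is a library, its colour the group and its shape the replicate number, and bars are group means. For every gene the 3 Ang II 14-day points lie below the 3 sham points, and Ang II 28-day replicate 2 lies lowest of its group.

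Pdha1 (Entrez 18597, chrX:160122219-160138430, GRCm38.p6 as for all positions here) was at 721, 1088 and 1869 CPM in sham replicates 1 to 3. It was at 542, 258 and 465 CPM after 14 days of Ang II and at 1138, 516 and 1114 CPM after 28 days. The 14-day libraries lay below all sham libraries, and 28-day replicate 2 lay among the 14-day values. The fitted log2 fold change at 14 days was -1.54 ± 0.48 (SE; edgeR adjusted p = 0.132), a level 2.91-fold lower. Estimated counts of Pdha1 were not whole numbers in any of the 9 libraries, so some of its reads were shared out among similar sequences.

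Cs (Entrez 12974, chr10:128337727-128362482) encodes citrate synthase, which joins acetyl-CoA to oxaloacetate in the first step of the cycle and is a common measure of mitochondrial content. Its level was 1072, 1291 and 2106 CPM in sham, 668, 373 and 744 CPM with 14 days of Ang II and 1350, 655 and 1373 CPM with 28 days. Sham replicate 3 stood highest and 14-day replicate 2 lowest of all libraries. At 14 days it was 2.50-fold lower than in sham, a log2 fold change of -1.32 ± 0.42 (SE; edgeR adjusted p = 0.136).

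2 enzymes of the matrix oxidise isocitrate, one with NAD and one with NADP. Idh3a (Entrez 67834, chr9:54586511-54604662), the catalytic subunit of the NAD-linked enzyme of the cycle, was at 618, 596 and 1119 CPM in sham. It was at 268, 149 and 345 CPM with 14 days of Ang II and at 783, 313 and 671 CPM with 28 days. The 14-day level was 3.06-fold lower, with a log2 fold change of -1.62 ± 0.46 (SE; edgeR adjusted p = 0.124).

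Idh2 (Entrez 269951, chr7:80094845-80118608), the NADP-linked enzyme, which supplies NADPH for antioxidant defence, differed least of the 9. Its sham values were 165, 108 and 183 CPM, its 14-day values 77.6, 77.2 and 107 CPM and its 28-day values 195, 99.8 and 139 CPM. The highest 14-day library lay just under the lowest sham library. At 14 days the log2 fold change was -0.80 ± 0.30 (SE; edgeR adjusted p = 0.167).

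Within a library, per kilobase of transcript, Idh3a stood 2.72, 4.01 and 4.45 times above Idh2 in sham, 2.51, 1.40 and 2.35 times at 14 days and 2.92, 2.28 and 3.50 times at 28 days. The 14-day ratios lay below all sham ratios (exact permutation test on log2 ratios, two-sided p = 0.1, the smallest that 3 against 3 allows). This ratio needs no scaling between libraries; it was chosen after the values were seen.

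Ogdh (Entrez 18293, chr11:6291597-6359094) encodes the subunit of the 2-oxoglutarate dehydrogenase complex that decarboxylates its substrate, a step that limits the rate of the cycle. It was at 993, 1313 and 2308 CPM in sham, 603, 442 and 743 CPM with 14 days of Ang II and 1352, 641 and 1179 CPM with 28 days. Again sham replicate 3 was the highest library and 14-day replicate 2 the lowest. The log2 fold change at 14 days was -1.37 ± 0.42 (SE; edgeR adjusted p = 0.130). As for Pdha1, estimated counts were not whole, here in 8 of 9 libraries.

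Suclg1 and Sucla2 are partners. Suclg1 (Entrez 56451, chr6:73248505-73276907) is the alpha subunit common to both forms of succinyl-CoA ligase, and Sucla2 (Entrez 20916, chr14:73552786-73596144) is the beta subunit of the form that makes ATP. Suclg1 was at 448, 373 and 747 CPM in sham, 163, 111 and 226 CPM with 14 days of Ang II and 437, 178 and 385 CPM with 28 days. Sucla2 was at 459, 596 and 1110 CPM in sham, 239, 143 and 308 CPM with 14 days of Ang II and 618, 310 and 626 CPM with 28 days. Each was 3.14-fold lower at 14 days, with log2 fold changes of -1.65 ± 0.44 for Suclg1 and -1.65 ± 0.46 for Sucla2 (SE; edgeR adjusted p = 0.117 for both).

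Suclg2, the beta subunit of the form that makes GTP, was the scarcer partner. Per kilobase, Sucla2 stood 6.08, 9.71 and 10.7 times above Suclg2 in sham, 5.58, 5.83 and 6.78 times at 14 days and 10.1, 7.47 and 9.72 times at 28 days. The sham and 14-day ratios overlapped (exact permutation test on log2 ratios, two-sided p = 0.2).

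Fh1 (Entrez 14194, chr1:175601378-175625635) encodes fumarase, which hydrates fumarate to malate. Its values were 223, 226 and 390 CPM in sham, 134, 76.1 and 154 CPM with 14 days of Ang II and 268, 129 and 259 CPM with 28 days. The 14-day log2 fold change was -1.20 ± 0.39 (SE; edgeR adjusted p = 0.140).

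Mdh2 (Entrez 17448, chr5:135778649-135790386) encodes the mitochondrial malate dehydrogenase that closes the cycle. It was at 526, 593 and 887 CPM in sham, 346, 273 and 404 CPM with 14 days of Ang II and 763, 368 and 647 CPM with 28 days. Its 14-day difference was the smallest after that of Idh2, at -0.97 ± 0.34 on the log2 scale (SE; edgeR adjusted p = 0.149).

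Levels of different genes were compared per kilobase of the longest RefSeq-linked transcript. The order between genes depends on that choice of length, and other lengths were not tried. In sham, Cs was highest at 509 ± 186 CPM per kilobase (SD, n = 3), followed by Mdh2 at 459 ± 132, Pdha1 at 430 ± 206, Ogdh at 373 ± 166 and Suclg1 at 344 ± 130. Idh3a and Sucla2 were both at 324, with SDs of 123 and 154. These SDs include differences between libraries that the genes shared. Within each sham library Cs stood above Mdh2 (366 and 362, 441 and 407, 720 and 609 CPM per kilobase). Pdha1 likewise stood above Ogdh (253 and 241, 382 and 318, 656 and 559). The order of the other neighbours among these 7 changed between sham libraries. Fh1 at 106 ± 36.3 and Idh2 at 87.0 ± 22.4 formed the low end, and they held the last 2 ranks in each of the 9 libraries. At 14 days Mdh2 was first in all 3 libraries and Cs second, at 234 ± 45.2 and 203 ± 67.0 CPM per kilobase (SD, n = 3).

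At 14 days the unadjusted edgeR p was under 0.05 for 9 of the 9 genes, in the lower direction, where 10.4% of all tested genes were so. DESeq2, with an adjusted p under 0.05, called 8 of 9 lower against a background of 4.80%, and Idh2, with a DESeq2 adjusted p of 0.0785, was the exception. The 9 of 9 genes whose groups did not overlap compare with 13.5% of all genes in which every 14-day library lay below every sham library. EdgeR's adjusted call took in 0% of the table, limma-voom also called 0 genes, and DESeq2 called 1970, so the calls differ by tool while the fitted sizes hardly do (a member median of -1.36 in DESeq2). Sham replicate 3 carried part of the difference: without it the median was -0.94 and 3 of 9 genes had an unadjusted p under 0.05. Of all 14741 genes 2133 had it in that fit, in either direction, against 3460 with all libraries and 2129 without 14-day replicate 2. 14-day replicate 2 was the lowest library for all 9 genes, and without it the median was -1.18 and 6 of 9 had an unadjusted p under 0.05. That library also stood apart in tissue content, with a summed leukocyte marker level of 10777 CPM against 1904 and 2857 CPM in the rest of its group. Its summed brown fat markers were at 980 CPM, against 1451 and 2525 CPM in the rest. It also had the lowest 14-day sums of adipocyte (3154 CPM) and smooth muscle markers (3649 CPM). The part of these tissues in its low values was not tested.

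At 28 days the 9 log2 fold changes against sham were all below 0, from -0.07 for Idh2 to -0.65 for Suclg1, and their median was -0.40 against -0.08 for all genes. 0 of 9 genes had an unadjusted p under 0.05 in this direction, where 5.89% of all genes did. DESeq2 called 0 of 9 lower, against 2.71% of all genes, and none of the 9 was without overlap, against 9.46%. EdgeR's adjusted p called 0% of genes, and adjusted p over the 9 ran from 0.610 to 0.957. The intervals were wide. For Cs the 95% interval of the log2 fold change ran from -1.37 to 0.56, and for Suclg1 from -1.64 to 0.34, and its lower end reached the 14-day estimate for Cs, Ogdh and Fh1 but not for the other 6 genes.

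The 28-day group was split. Replicates 1 and 3 lay near the sham values, as for Fh1 at 268 and 259 CPM, and replicate 2, at 129 CPM, lay among the 14-day libraries. Without sham replicate 3 the median against sham was 0.01, and 3 of the 9 genes still had a value below 0 (Cs, Ogdh and Suclg1). Without 28-day replicate 2 it was -0.12.

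Between the Ang II times, the 9 genes were higher at 28 days than at 14 days, by log2 fold changes of 0.73 for Idh2 to 1.21 for Idh3a and a median of 0.92 against -0.05 over all genes. Unadjusted edgeR p was under 0.05 for 6 of 9 in the higher direction, with 3.86% of all genes as background. The 3 others were Cs, Ogdh and Fh1. DESeq2 called 0 of 9 higher (background 0.594%), edgeR's adjusted p called 0% of genes, and 1 of 9, Sucla2, had no overlap between the groups (background 4.35%), with 310 CPM as its lowest 28-day value and 308 CPM as its highest 14-day value. The comparison shares its 14-day libraries with the first one. Without 14-day replicate 2 the median was 0.68 and no member had an unadjusted p under 0.05; this was also so without 28-day replicate 1 or 3 (median 0.76 in both), 1 member had it without 14-day replicate 1, 3 without sham replicate 2 and 4 without sham replicate 1 or 14-day replicate 3. Without 28-day replicate 2 all 9 had it, with a median of 1.19. Of all 14741 genes 903 had it with all libraries, in either direction. That number was 560 without 14-day replicate 2, 439 without 28-day replicate 1 and 458 without 28-day replicate 3. It was 1259 without 14-day replicate 1, 1224 without 28-day replicate 2, and 874 to 1035 without sham replicate 1 or 2 or 14-day replicate 3.

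**Figure D2:**
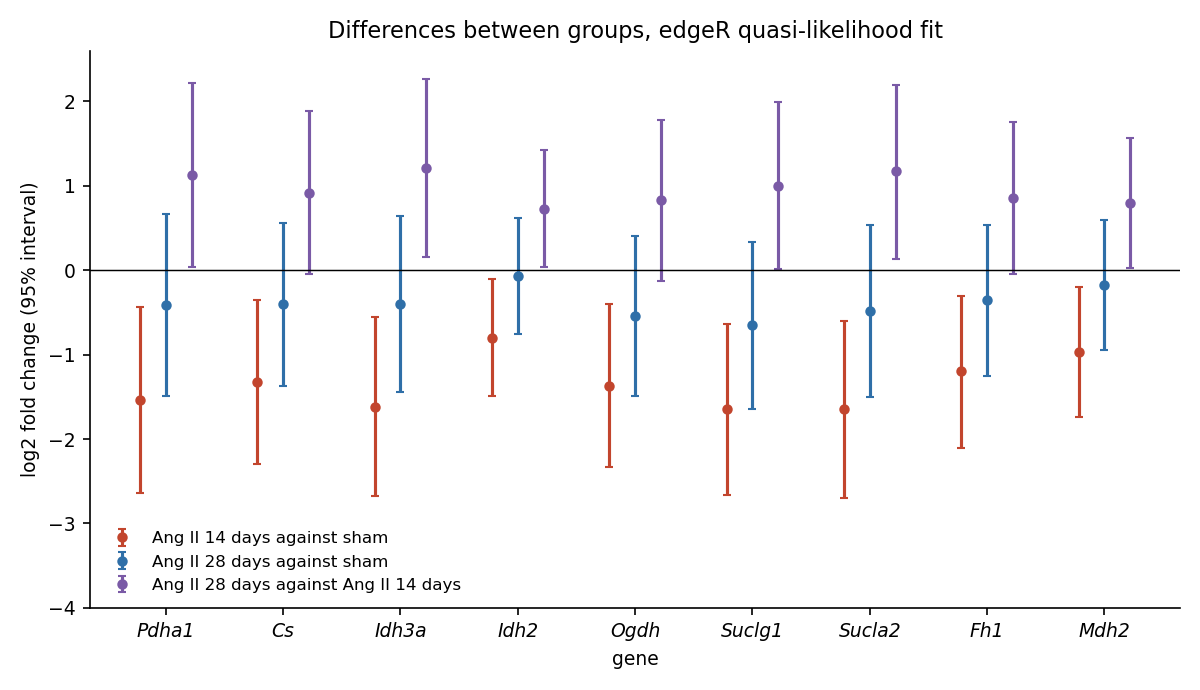
Log2 fold changes of the 9 genes in 3 comparisons, as points with 95% intervals from the edgeR fit over all 9 libraries. The 14-day intervals lie below 0 for all 9 genes, the 28-day intervals against sham all cross 0, and those of 28 against 14 days lie above 0 for 6 of the 9.

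With both Ang II times averaged against sham, the median of the 9 genes was -0.95 and that of all genes -0.08. 7 of 9 had an unadjusted edgeR p under 0.05 in the lower direction (background 10.1%), and Idh2 and Mdh2 did not. DESeq2 called 1 of 9 lower, Suclg1 (background 4.35%), and edgeR's adjusted p called 0% of genes, with a lowest adjusted p of 0.0931 in the table. The count of 7 was 0 without sham replicate 3, 2 without 14-day replicate 2 and 4 without 28-day replicate 2. Over all 14741 genes the numbers in these fits were 1952, 2714 and 2469, in either direction, against 3168 with all libraries.

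Other subunits of citric acid cycle enzymes, among them the 4 of succinate dehydrogenase, had the same direction. All 9 of Idh3b, Idh3g, Dlst, Dld, Suclg2, Sdha, Sdhb, Sdhc and Sdhd had an unadjusted p under 0.05 and no overlap with sham at 14 days, all lower, with a median log2 fold change of -1.27. DESeq2 called all 9, and edgeR with adjustment none. Of all genes 10.4% were lower by the unadjusted p, 13.5% by no overlap and 4.80% by DESeq2. Idh3b, a regulatory subunit of the NAD-linked isocitrate dehydrogenase, was at 748, 620 and 1074 CPM in sham and at 311, 234 and 392 CPM at 14 days, a log2 fold change of -1.38 ± 0.37 (SE). Dld, the dehydrogenase that several 2-oxoacid complexes have in common, was at -1.43 ± 0.38 and Suclg2 at -1.09 ± 0.31 (SE; edgeR adjusted p = 0.117 and 0.121). At 28 days against sham 0 of these 9 had an unadjusted p under 0.05, where 5.89% of all genes were so lower. The median of the 9 was -0.43.

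Around Pdha1 stood 10 other genes of the pyruvate dehydrogenase complex and its regulators. At 14 days 7 of the 10 had an unadjusted p under 0.05, all lower, where 10.4% of all tested genes were so. DESeq2 called 5 of the 10 lower, against 4.80% of all genes. Pdk4, the kinase that shuts the complex off when fat is burned, showed the largest size of the list: 239, 488 and 998 CPM in sham, 151, 112 and 194 CPM with 14 days of Ang II and 657, 317 and 441 CPM with 28 days, with a 14-day log2 fold change of -1.92 ± 0.53 (SE; edgeR adjusted p = 0.118). Dlat, the acetyltransferase core of the complex, was at -1.46 ± 0.43, and Pdp2, a phosphatase that switches the complex on, was at -1.12 ± 0.41 (SE; edgeR adjusted p = 0.127 and 0.159). The kinases Pdk1 and Pdk3 and the phosphatase Pdp1 were the 3 that missed an unadjusted p of 0.05, with values of -0.45, 0.45 and -0.17. Per kilobase and within a library, Pdk4 stood to Pdha1 at 0.358 ± 0.0830 in sham, 0.308 ± 0.0705 at 14 days and 0.433 ± 0.0957 at 28 days (SD, n = 3), and the groups overlapped.

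Supply routes to the cycle were mixed. Mpc1 and Mpc2, the partners in the carrier that brings pyruvate into mitochondria, were lower at 14 days by log2 fold changes of -1.60 ± 0.40 and -1.50 ± 0.39 (SE; edgeR adjusted p = 0.117 for both), with Mpc1 at 1086, 767 and 1371 CPM in sham and 421, 259 and 384 CPM at 14 days. Me2, a mitochondrial malic enzyme, was on the other side of 0 at 0.81 ± 0.35 (SE; edgeR adjusted p = 0.212). Of the 9 genes of this list 3 had an unadjusted p under 0.05 lower and 1 higher, and the median was -0.20. Of all 14741 tested genes 1529 were so lower and 1931 so higher. Glud1, which feeds glutamate into the cycle, was at 249, 248 and 270 CPM in sham, 239, 250 and 260 CPM with 14 days of Ang II and 242, 217 and 271 CPM with 28 days; it is outside the naming rule and was picked out after its values were seen. Its 14-day log2 fold change was -0.03, with a 95% interval from -0.39 to 0.33. Against Glud1, Cs per kilobase stood at 6.69 ± 2.09 in sham and 2.76 ± 0.892 at 14 days (SD, n = 3).

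Among 11 cytosolic counterparts and carriers the list median at 14 days was -0.44. Of all tested genes 10.4% were lower by an unadjusted p under 0.05, and in this list 2 had such a p, both lower. They were Mdh1, the cytosolic malate dehydrogenase, at -0.93 ± 0.33, and Slc25a11, the oxoglutarate carrier, at -0.44 ± 0.18 (SE; edgeR adjusted p = 0.153 and 0.204). Slc25a13, an aspartate and glutamate carrier, was low in all libraries, at 0.715 to 8.07 CPM. Slc25a10, the dicarboxylate carrier, was at 74.8, 111 and 77.5 CPM in sham and 174, 90.8 and 169 CPM at 28 days, and these overlapped. Mdh2 over Mdh1 per kilobase was 1.58 ± 0.266 in sham and 1.58 ± 0.284 at 14 days (SD, n = 3).

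2 genes tie cycle metabolites to immune signals. Acod1, which macrophages use to make itaconate from a cycle intermediate, was at 0.107, 0 and 0.356 CPM in sham, 1.75, 1.66 and 1.15 CPM with 14 days of Ang II and 0.766, 0.860 and 1.59 CPM with 28 days. Both Ang II groups lay above all sham libraries, at very low levels (14-day edgeR adjusted p = 0.119). The succinate receptor gene Sucnr1 was at 5.11 to 6.51 CPM in sham and 1.3 to 10.4 CPM at 14 days, and these overlapped.

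**Figure D3:**
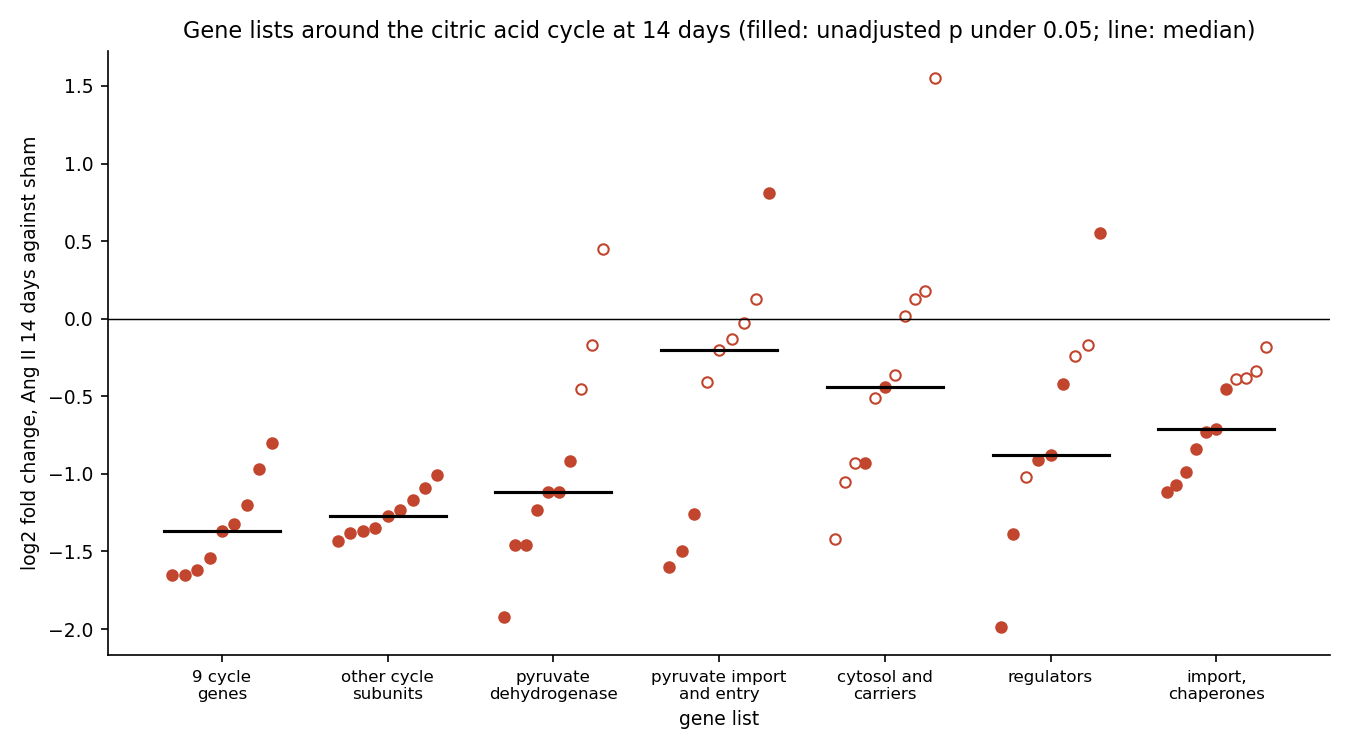
Log2 fold changes at 14 days against sham for the 9 genes and 6 neighbouring gene lists; each point is a gene, filled where the unadjusted edgeR p was under 0.05, and the line is the list median. The medians are -1.37 for the 9 genes, -1.27 for other cycle subunits, -1.12 for the pyruvate dehydrogenase list, -0.20 for entry routes, -0.44 for cytosolic counterparts and carriers, -0.88 for regulators and -0.71 for import and chaperone genes.

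Of 9 regulators of mitochondrial gene expression, 5 were lower and 1 higher at 14 days by an unadjusted p under 0.05, where 1529 of all 14741 genes were lower and 1931 higher. Ppara, a nuclear receptor that switches on fatty acid oxidation, was at 74.4, 94.6 and 157 CPM in sham, 36.9, 14.0 and 31.1 CPM with 14 days of Ang II and 117, 61.1 and 113 CPM with 28 days. Its 14-day log2 fold change was -1.99 ± 0.45 (SE; edgeR adjusted p = 0.117). Ppargc1b, a coactivator of mitochondrial genes, was at -1.39 ± 0.38, and Tfb2m, a mitochondrial transcription factor, at -0.91 ± 0.26 (SE; edgeR adjusted p = 0.118 and 0.124). Nrf1, a transcription factor for respiratory genes, lay the other way at 0.55 ± 0.20 (SE; edgeR adjusted p = 0.155), with 15.9 to 17.3 CPM in sham and 20.7 to 31.6 CPM at 14 days.

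Of 11 mitochondrial import, chaperone and outer membrane genes, 7 had an unadjusted p under 0.05 at 14 days, all lower. Of all tested genes 10.4% were so lower, and the list median was -0.71. The difference from the cycle genes was not tested, and the sizes overlapped. Phb, an inner membrane scaffold, was at -0.84 ± 0.25, Hspa9, the matrix chaperone, at -1.12 ± 0.36, and Immt, a cristae protein, at -1.07 ± 0.36 (SE; edgeR adjusted p = 0.127, 0.138 and 0.142). Tomm20, an import receptor of the outer membrane, was at 145, 163 and 133 CPM in sham and 121, 139 and 129 CPM at 14 days, and these overlapped. Per kilobase, Cs over Tomm20 was 17.4 ± 7.88 in sham, 7.80 ± 2.87 at 14 days and 13.4 ± 4.46 at 28 days (SD, n = 3), with no overlap between sham and 14 days (exact permutation test on log2 ratios, two-sided p = 0.1, the smallest that 3 against 3 allows). Tomm20 and this ratio were chosen after the values were seen.

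Most markers of brown fat moved with the 9 genes. Ucp1, the uncoupling protein that defines brown adipocytes, was at 2359, 2895 and 6133 CPM in sham, 773, 651 and 1750 CPM with 14 days of Ang II and 2981, 1088 and 2988 CPM with 28 days, with sham replicate 3 highest and 14-day replicate 2 lowest, as for the cycle genes other than Idh2, whose highest library was 28-day replicate 1. Cidea, another brown fat gene, was at 776 to 1619 CPM in sham and 201 to 456 CPM at 14 days. Lhx8 and Prdm16, named after their values were seen, did not follow the pattern: Lhx8 had log2 fold changes of -0.08 at 14 days and 0.70 at 28 days, and Prdm16, at 41.1 to 69.2 CPM in sham, was still at 20.0 to 34.9 CPM at 28 days. The summed level of the 10 markers ranged from 4051 to 8859 CPM in sham, 980 to 2525 CPM with 14 days of Ang II and 1780 to 4887 CPM with 28 days. Of the 9 markers tested, 6 were lower at 14 days by an unadjusted p under 0.05, against 10.4% of all tested genes. The median of the 9 was -1.49. Zic1, at 0 to 0.438 CPM, was too low to test. In bulk tissue fewer cells of a type and less RNA per cell cannot be told apart.

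Fitted with the mean log2 CPM of the 9 tested brown fat markers as a covariate, the 9 cycle genes had a median log2 fold change of -0.13 at 14 days, with values from -0.33 to 0.03, and 0 of 9 had an unadjusted p under 0.05. Of all 14741 tested genes 712 had it in that 14-day fit, in either direction, against 3460 without a covariate. The medians of the 9 were -0.04 at 28 days against sham and 0.08 for 28 against 14 days. The marker means at 14 days lay below all those in sham, so group and covariate overlap in this fit. Over the 9 libraries Pearson's r between a cycle gene and the marker mean was 0.87 for Idh2 to 0.99 for Fh1, with a median of 0.98, as a description. The median r was 0.97 with the mean of the import and chaperone genes and 0.96 with that of the regulators. The 36 pairs among the 9 genes had r from 0.79 (Idh2 and Pdha1) to 1.00 (Cs and Fh1), median 0.97, and 4.80% of all tested genes had r of at least 0.9 with the mean of the 9.

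**Figure D4:**
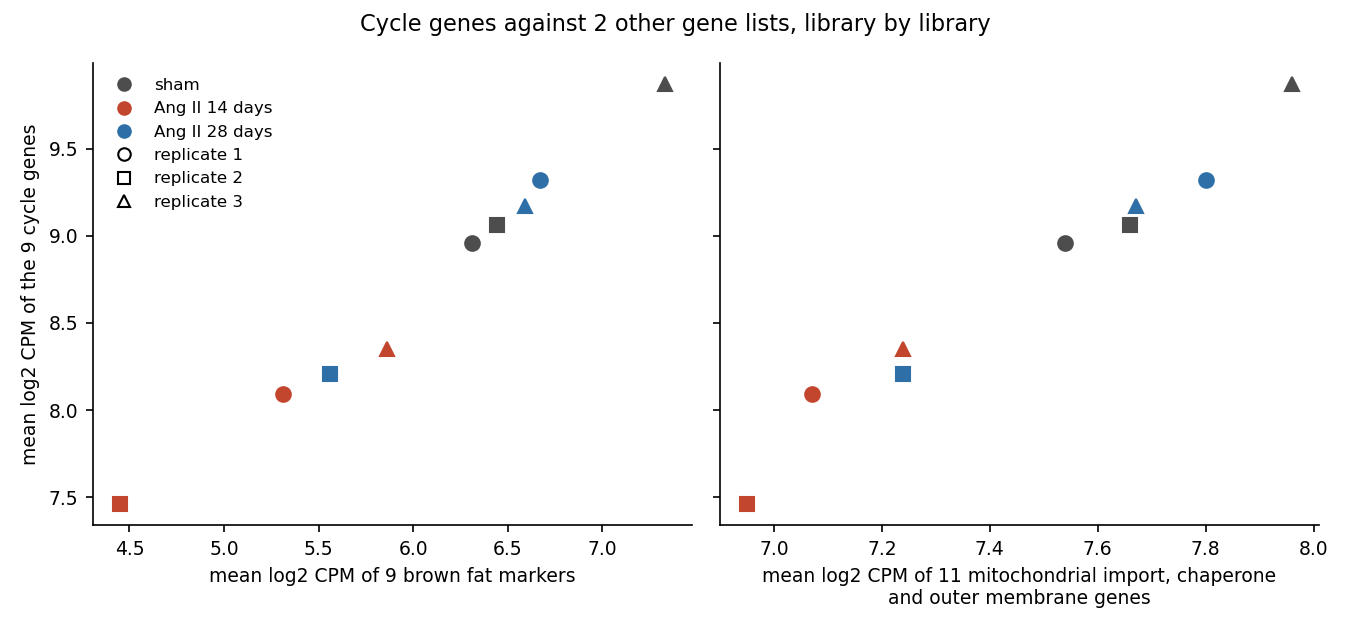
Mean log2 CPM of the 9 cycle genes in each library (y axis) against the mean log2 CPM of 9 brown fat markers (left) and of 11 mitochondrial import, chaperone and outer membrane genes (right); colour gives the group and shape the replicate number. Ang II 28-day replicate 2, at 8.21 on the y axis and 5.56 on the left x axis, lies among the 14-day libraries in both panels.

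General adipocyte markers had a summed level of 10003 to 14404 CPM in sham and 3154 to 9647 CPM at 14 days (Adipoq 748 to 1341 and 230 to 955 CPM, Lep 12.8 to 21.9 and 1.73 to 31.4 CPM), and r with the 9 genes had a median of 0.78. As a covariate they left a 14-day median of -1.01. Leukocyte markers went the other way, from 254 to 1315 CPM in sham to 1904 to 10777 CPM at 14 days (Ptprc 12.8 to 23.4 and 54.5 to 368 CPM, Adgre1 15.9 to 22.7 and 27.4 to 322 CPM). All 9 of them were higher by an unadjusted p under 0.05, as were 1931 of all 14741 tested genes. Their median r with the cycle genes was -0.70. With them as a covariate the 14-day median of the cycle genes was -0.58, and 0 of 9 had an unadjusted p under 0.05. Of all 14741 tested genes 383 had it in that fit, in either direction, against 3460 without a covariate. The leukocyte marker means at 14 days lay above all those in sham, so group and covariate overlap in this fit too.

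Smooth muscle markers had a median log2 fold change against sham of -0.91 at 14 days and -2.34 at 28 days. Des, which skeletal muscle also expresses, was at 1.84 at 28 days. Of the 10 markers 0 at 14 days and 8 at 28 days were lower by an unadjusted p under 0.05. The shares of all tested genes were 10.4% and 5.89%. The markers were also summed. Their summed level was 9704 to 29341 CPM in sham, 3649 to 17040 CPM with 14 days of Ang II and 2109 to 7190 CPM with 28 days. The median r of the cycle genes with them was 0.37, and with them as a covariate the 14-day median was -1.20. Skeletal muscle markers, at 18516, 6248 and 133 CPM in summed level at 28 days, had a median r of 0.10 and as a covariate left a 14-day median of -1.36, and without 28-day replicates 1 and 2 the lone remaining library gave a median of -0.14 against sham. Endothelial markers (Pecam1 263 to 380 CPM in sham and 200 to 461 CPM at 14 days, Cdh5 139 to 170 and 165 to 251 CPM) had a median r of 0.34. For fibroblast markers (Pdgfra 28.9 to 54.8 and 46.6 to 82.7 CPM, Dpt 123 to 231 and 212 to 383 CPM) it was -0.31, and for neuron markers -0.15. The fits describe how the values shift with a marker mean, and the part of these other tissues in the differences was not tested.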

How the data were processed

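The deposited files hold, for each of 9 libraries, 1 expected count per gene and no normalised value. According to the submitters' processing notes the tools were RSEM 1.3.1, HISAT2 2.2.1 and Bowtie2 2.4.5, on GRCm38.p6; their roles and the strand setting were not given in the sources used here. Expected counts, which the authors deposited unscaled, were rounded to whole numbers. Genes were kept with edgeR's filterByExpr, scaled by TMM and tested with edgeR 4.0.16's robust quasi-likelihood test over all 9 libraries in R 4.3.3, with Benjamini-Hochberg adjustment over all 14741 genes and a threshold of 0.05; DESeq2 1.42.0 and limma 3.58.1 (voom) were alternatives. Log2 CPM carried a prior count of 2. Symbols, positions and promoter windows came from RefSeq and GENCODE M21 tables of GRCm38.p6. The fit was tested on simulated counts.

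All 9 genes are named. Of each other pathway list, the 2 genes with the smallest unadjusted p at 14 and at 28 days against sham are named, with both genes of the itaconate and succinate list, the first 2 of each marker list, and the 6 genes outside the lists most like the mean of the 9. The genes and lists were chosen with earlier results of these data known, and 1 gene of the list of other cycle subunits is not reported here. Leave-one-out fits, other scalings, filters, marker covariates and a replicate block were tried. No pair of libraries in a group agreed within sampling noise (chi-square per gene 61.9 to 238), so none was counted as a repeat.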

Additional observations from a re-analysis of the deposited data

How the results depend on the processing

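At 14 days all 9 genes stayed below 0 in every fit run except Fh1, at 0.03 with brown fat markers as a covariate; leaving out 1 library gave medians of -1.60 to -0.94. No member was called by edgeR or limma-voom in any fit. DESeq2 called 1970, 970, 118 and 1797 genes at 14 days, 28 days, 28 against 14 days and for the averaged times, and 8, 0, 0 and 1 members. Whether the replicate numbers pair the libraries could not be told from r of deviations (-0.55 to 0.65 within numbers, -0.73 to 0.72 across them). With the replicate block, 9 members had an unadjusted p under 0.05 for 28 against 14 days, against 6 without it. Over all genes the numbers were 1226 and 903, in either direction. Adjusted p of the members there ran from 0.435 to 0.591 with the block. The block called 1 gene at 14 days and 1 for the averaged times, and no member. At 14 days 1 gene was called with only these 2 groups and 1 without 28-day replicates 1 and 2, which also gave 1 for the averaged times. Leaving out 1 library, calls ranged from 0 to 7 at 28 days (5 without sham replicate 2, 7 without 28-day replicate 3) and from 0 to 5 for the averaged times (5 without sham replicate 2). With brown fat markers the member medians were -0.13 at 14 days, 0.08 for 28 against 14 days and -0.06 averaged. With leukocyte markers, added after seeing the data as were adipocyte markers, they were -0.58, 0.34 at 28 days and -0.17 averaged. The causes were not tested.

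The other sign changes were these. Leaving out 1 library, the 28-day value against sham ranged from -0.34 to 0.14 for Idh2, -0.66 to 0.01 for Idh3a, -0.72 to 0.02 for Sucla2, -0.53 to 0.01 for Fh1, -0.40 to 0.13 for Mdh2 and -0.68 to 0.08 for Pdha1; the values above 0 came without sham replicate 3 and, for Idh2 and Mdh2 (0.14 and 0.08), without 28-day replicate 2. Brown fat markers gave 0.09 for Idh2 and 0.07 for Mdh2, and smooth muscle markers 0.08 for Cs, 0.39 for Idh2, 0.28 for Idh3a, 0.20 for Fh1, 0.17 for Mdh2 and 0.10 for Pdha1. Leukocyte markers gave 0.38 for Cs, 0.02 for Idh2, 0.35 for Idh3a, 0.10 for Ogdh, 0.23 for Sucla2, 0.34 for Fh1, 0.37 for Mdh2 and 0.68 for Pdha1. For 28 against 14 days brown fat markers gave -0.01 for Cs, -0.07 for Ogdh and -0.05 for Fh1. At 14 days they gave 0.05 for Pdp2 and 0.00 for Immt, and leukocyte markers 0.26 for Mdh1 and -0.89 for Slc25a13. The 2 planned fits on FPKM values were not run, since the files used hold none. With 3 libraries a group, the spread between libraries (pooled SD 0.52 for the 9 genes' mean log2 CPM) limits precision more than depth, since each of the 9 genes had over 1000 counts in every library.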

Other observations

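The 6 genes outside the lists whose log2 CPM was most like the mean of the 9 cycle genes over the 9 libraries were Uqcrc2, Gatd3a, Tmem143, Hadhb, Decr1 and Acadvl, with Pearson's r from 0.996 to 0.999, given as a description. Uqcrc2 encodes a core subunit of respiratory complex III, and was at 477, 548 and 951 CPM in sham, 283, 177 and 334 CPM with 14 days of Ang II and 650, 296 and 581 CPM with 28 days. Hadhb, Decr1 and Acadvl encode enzymes of mitochondrial fatty acid oxidation. Hadhb, the thiolase subunit of the trifunctional protein, was at 1197, 1442 and 2664 CPM in sham and 570, 341 and 682 CPM at 14 days, and Acadvl, which starts the oxidation of long chains, was at 886, 985 and 1834 CPM and 423, 265 and 580 CPM. All of these show sham replicate 3 highest and 14-day replicate 2 lowest, as do 8 of the 9 genes, Idh2 being highest in 28-day replicate 1.

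Within the cycle, Suclg1 over Mdh2 per kilobase was 0.817, 0.602 and 0.807 in sham, 0.451, 0.389 and 0.536 at 14 days and 0.549, 0.463 and 0.571 at 28 days. Both Ang II groups lay below all sham libraries. At 14 days the exact permutation test on log2 ratios gave a two-sided p = 0.1, the smallest that 3 against 3 allows. 9 such ratios were computed, all chosen after the values were seen, and the smallest Benjamini-Hochberg adjusted p over them was 0.225.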
